A study of Saccharomyces cerevisiae with 16 samples.

Results

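RNA polymerase I is described here through 10 genes of Saccharomyces cerevisiae: the 7 subunit genes found in no other polymerase (RPA190, RPA135, RPA12, RPA43, RPA14, RPA49, RPA34), the 2 subunit genes shared with RNA polymerase III (RPC40, RPC19), and RRN3, the gene of the factor that makes the enzyme competent to initiate. They were taken by name, with earlier results of these data known, and are 10 of the 6648 genes of the expression table. The 16 RNA sequencing libraries form a single time course, with 1 library per time point. The 15 starvation libraries were taken every 15 min from 15 to 225 min after cells were washed and moved to medium without phosphate, and the 0 min library came from high phosphate medium. All libraries, 0 min included, are labelled as the same haploid strain, a BY4741 derivative that lacks phm4 and carries YFP under the PHO84 promoter. No library analysed here is labelled as having an intact PHM4 gene, and washing, the change of medium and the loss of phosphate cannot be told apart.

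RNA polymerase I transcribes the repeated ribosomal DNA into the large precursor of the ribosomal RNAs, and in growing yeast this is the most active transcription unit of the cell. The enzyme has a catalytic core, a stalk that contacts Rrn3, and a pair of subunits related to general initiation factors of RNA polymerase II. Its subunit genes are themselves transcribed by RNA polymerase II, so mRNA levels of these genes, and not ribosomal RNA synthesis, were measured.

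Values are reads per 1000000 (CPM), a share of each library's listed reads. A lower value can therefore be less mRNA per cell, fewer cells with the mRNA, or more mRNA of other genes, which cannot be told apart. Read numbers recovered from the table were 603426 to 3437873 in 14 deeper libraries, and 40984 and 45009 in the libraries labelled 195 and 210 min. The table lists no gene below 10 reads, a floor of 2.91 to 16.6 CPM in the deeper libraries but of 244 and 222 CPM in the libraries labelled 195 and 210 min. All 10 genes were listed in all 14 deeper libraries, with 19 to 2738 reads each. VTC1, another name of PHM4, was listed in every library although the labels call it deleted, so its level goes against the label. It stood at 6.67 to 7.51 log2 CPM in the deeper libraries, and at 10.80 and 10.90 log2 CPM in the libraries labelled 195 and 210 min. The results below rest on the 14 deeper libraries. Of 8 markers of other cell types (the opposite mating type or sporulating cells), 2 to 5 were listed in the deeper starvation libraries at a summed 86.2 to 177 CPM, against 6 at 56.4 CPM at 0 min. The 0 min library had the lowest floor, so more markers could be listed there. NDT80 was the largest single part of each sum, with 20.9 CPM at 0 min and 58.8 to 141 CPM in the deeper starvation libraries. STE3 had 16.6 CPM at 0 min and 16.3 to 49.8 CPM in those libraries. The alpha-factor gene MF(ALPHA)1 was listed in 7 of the 13 deeper starvation libraries, at 5.70 to 22.9 CPM, against 4.94 CPM at 0 min. The second alpha-factor gene MF(ALPHA)2 and the sporulation initiator IME1 had no value in any library, and the part of these markers in the results was not tested.

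The members share features in the DNA upstream of their coding sequences. PAC (named for polymerase A and C, the older names of RNA polymerases I and III) and RRPE (ribosomal RNA processing element) are motifs known upstream of yeast growth genes. Their cores, GATGAG for PAC and AAAATTTT for RRPE, were searched on both strands of the 300 bases before each start codon in build R64. The RRPE core reads the same on both strands. A PAC core lay in the window of 9 of the 10 members, against 19.1% of all 6001 protein-coding windows. An RRPE core lay in 8 of 10, against 9.42%, and both lay in 8 of 10, against 4.45%. RPA12 had neither and RPC19 had PAC alone. Stretches that hold the matches are shown on the strand of their gene, 5′ to 3′, with 10 bases to each side and the matches in capitals (CTCATC is the PAC core read on the other strand). They are shown because the cores are a feature that most members share. PAC takes its name from polymerases whose genes are counted here, so its share in the members follows from the choice of motif and is a description.
RPA190: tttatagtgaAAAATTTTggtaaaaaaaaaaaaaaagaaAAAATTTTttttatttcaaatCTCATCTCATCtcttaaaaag
RPA135: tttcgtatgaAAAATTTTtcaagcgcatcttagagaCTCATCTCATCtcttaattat
RPA43: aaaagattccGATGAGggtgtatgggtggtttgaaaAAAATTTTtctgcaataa
RPA14: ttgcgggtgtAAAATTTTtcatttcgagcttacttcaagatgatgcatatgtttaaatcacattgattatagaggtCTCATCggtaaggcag
RPA49: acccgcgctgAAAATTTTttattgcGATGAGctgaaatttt
RPC40: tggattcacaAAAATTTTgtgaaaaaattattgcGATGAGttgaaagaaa
RPC19: attcacctgcGATGAGctggaaaaaa
RRN3: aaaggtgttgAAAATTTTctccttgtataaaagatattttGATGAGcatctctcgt

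The stretch of RPA190 is chrXV:960755-960835 (plus strand) and that of RPA43 is chrXV:960321-960374 (minus strand). These 2 genes (YOR341W, 960987 to 965981, and YOR340C, 959202 to 960182) are transcribed away from each other, with 804 bases between them. Both 300-base windows lie within these 804 bases, so no match could fall elsewhere. The other stretches are chrXVI:581285-581341 for RPA135 (minus strand), chrIV:769390-769481 for RPA14 (plus), chrXIV:182723-182763 for RPA49 (minus), chrXVI:746903-746952 for RPC40 (minus), chrXIV:412634-412659 for RPC19 (plus) and chrXI:208033-208088 for RRN3 (plus). RPA34 (YJL148W, chromosome X, 140437 to 141138) held 1 PAC core and 2 RRPE cores between 221 and 105 bases before its start codon. In RPA135 and RPA190 the PAC core occurred as a pair of copies that overlap by their end base. A match is a string of letters in this window, and binding of any factor was not measured.

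**Figure D1:**
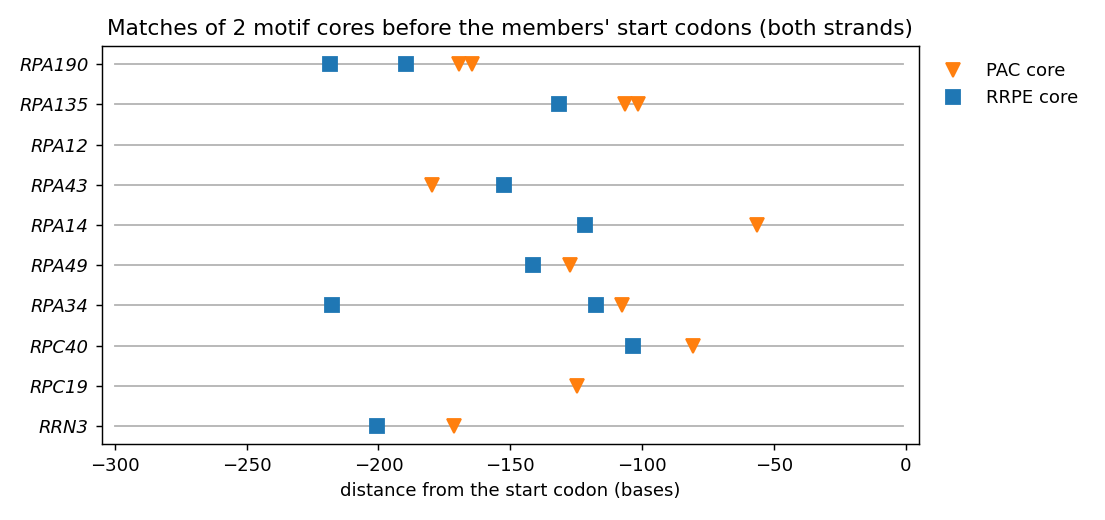
Positions of the PAC core and RRPE core matches in the 300 bases before the start codon of each of the 10 genes (x axis, bases before the start codon; 1 row per gene). All rows but that of RPA12 carry a PAC core, and 8 carry both cores.

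At each of the 13 deeper starvation time points all 10 genes were below their 0 min value, but the distance came and went. The members' median was 60.8% of the 0 min level at 15 min, 37.1% at 30 min, 22.9% at 45 min and 26.8% at 60 min. It then stood at 41.4% at 75 min, 78.2% at 90 min, 72.5% at 105 min, 51.9% at 120 min and 53.5% at 135 min. At 150 min it was 13.02%, followed by 18.8% at 165 min, 31.7% at 180 min and 27.3% at 225 min. The profile thus has a trough at 45 to 60 min, a return at 90 to 105 min and a second, deeper trough at 150 to 165 min. Over the same libraries the median of all genes lay 0.22 to 0.42 (log2) above 0 min.

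RPA190 and RPA135 encode the largest and second largest subunits, which form the catalytic cleft. RPA190 had 398 CPM at 0 min, then 244, 141, 61.9, 57.5 and 134 CPM at 15 to 75 min. It had 298, 285.0, 180.3 and 224 CPM at 90 to 135 min, and 47.4, 41.0, 60.0 and 74.3 CPM at 150, 165, 180 and 225 min. RPA135 (YPR010C, chromosome XVI, 577585 to 581196) had 329 CPM at 0 min, 167, 106, 49.1, 35.5 and 94.9 CPM at 15 to 75 min, 188, 163, 118 and 136 CPM at 90 to 135 min, and 34.8, 26.0, 32.6 and 34.9 CPM at 150, 165, 180 and 225 min. In both genes the values at 90 to 135 min lie above those of every other time from 45 min on. RPA135 reached the lowest share of its 0 min level of any member, 7.89% at 165 min, where 26 reads gave a 95% Poisson interval of 17.0 to 38.1 CPM. Its highest value between 90 and 135 min was 57.1% of the 0 min level, the lowest such share of the members. RPA12 (YJR063W, chromosome X, 555195 to 555572), a small subunit that takes part in cleavage of the nascent RNA, had 103 CPM at 0 min, 26.8 CPM at 60 min, 97.3 CPM at 90 min and 11.6 CPM at 150 min. That last value rests on 22 reads, with a 95% interval of 7.27 to 17.6 CPM.

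RPA43 and RPA14 encode the stalk, and RPA43 is the subunit that Rrn3 contacts. RPA43 had 262 CPM at 0 min and 156, 92.8, 50.7, 36.4 and 95.7 CPM at 15 to 75 min. It had 187, 205, 129 and 135 CPM at 90 to 135 min and 29.5, 28.0, 57.4 and 58.1 CPM at 150, 165, 180 and 225 min. RPA14 (YDR156W, chromosome IV, 769525 to 769938) varied less, with 210.0 CPM at 0 min, 193, 106, 95.5, 85.3 and 122 CPM at 15 to 75 min, 149.5, 141, 125 and 131 CPM at 90 to 135 min, and 73.8, 52.9, 78.3 and 105 CPM at 150, 165, 180 and 225 min. The subunits of the stalk differed in range: the lowest share of the 0 min level was 10.7% for RPA43 and 25.2% for RPA14, both at 165 min. RPA14 overlaps YDR157W by 8 bases on the same strand, and how the authors assigned reads there is not stated.

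RPA49 and RPA34 encode a heterodimer related to the initiation factor TFIIF of RNA polymerase II. RPA34 had the highest CPM of the members at 0 min, with 796 CPM at 0 min and 632, 287, 138, 235 and 342 CPM at 15 to 75 min. It had 649.9, 732, 451 and 400.5 CPM at 90 to 135 min and 113, 183, 344 and 215 CPM at 150, 165, 180 and 225 min. RPA49 (YNL248C, chromosome XIV, 181361 to 182608) had 225 CPM at 0 min, 27.7 CPM at 45 min, 165 CPM at 90 and at 105 min, and 20.6 CPM at 150 min. The extremes of both partners were listed at 45, 105 and 150 min, but RPA49 had 164.9 CPM at 90 min against 165.1 CPM at 105 min. At 180 min RPA34 stood at 43.2% of its 0 min level and RPA49 at 19.7%.

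RPC40 (YPR110C, chromosome XVI, 745828 to 746835) and RPC19 (YNL113W, chromosome XIV, 412771 to 413199) encode the pair on which both RNA polymerases I and III assemble. RPC40 had 252 CPM at 0 min, 69.0 CPM at 60 min, 207 CPM at 90 min and 38.0 CPM at 165 min. RPC19 had 199.5 CPM at 0 min, 58.7 CPM at 45 min, 198 CPM at 90 min and 43.8 CPM at 150 min. RPC19 came closest to its 0 min level of all members, at 99.3%. RRN3 (YKL125W, chromosome XI, 208247 to 210130) had the lowest CPM of the members at 0 min, with 73.6 CPM at 0 min, 39.9, 31.5, 31.5, 23.0 and 29.4 CPM at 15 to 75 min, 65.3, 47.5, 30.2 and 42.8 CPM at 90 to 135 min, and 28.5, 25.0, 37.8 and 21.3 CPM at 150, 165, 180 and 225 min. It was lowest at 225 min, at 29.0% of 0 min on 33 reads, and its 120 min value lay within the range of its 45 to 75 min values.

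**Figure D2:**
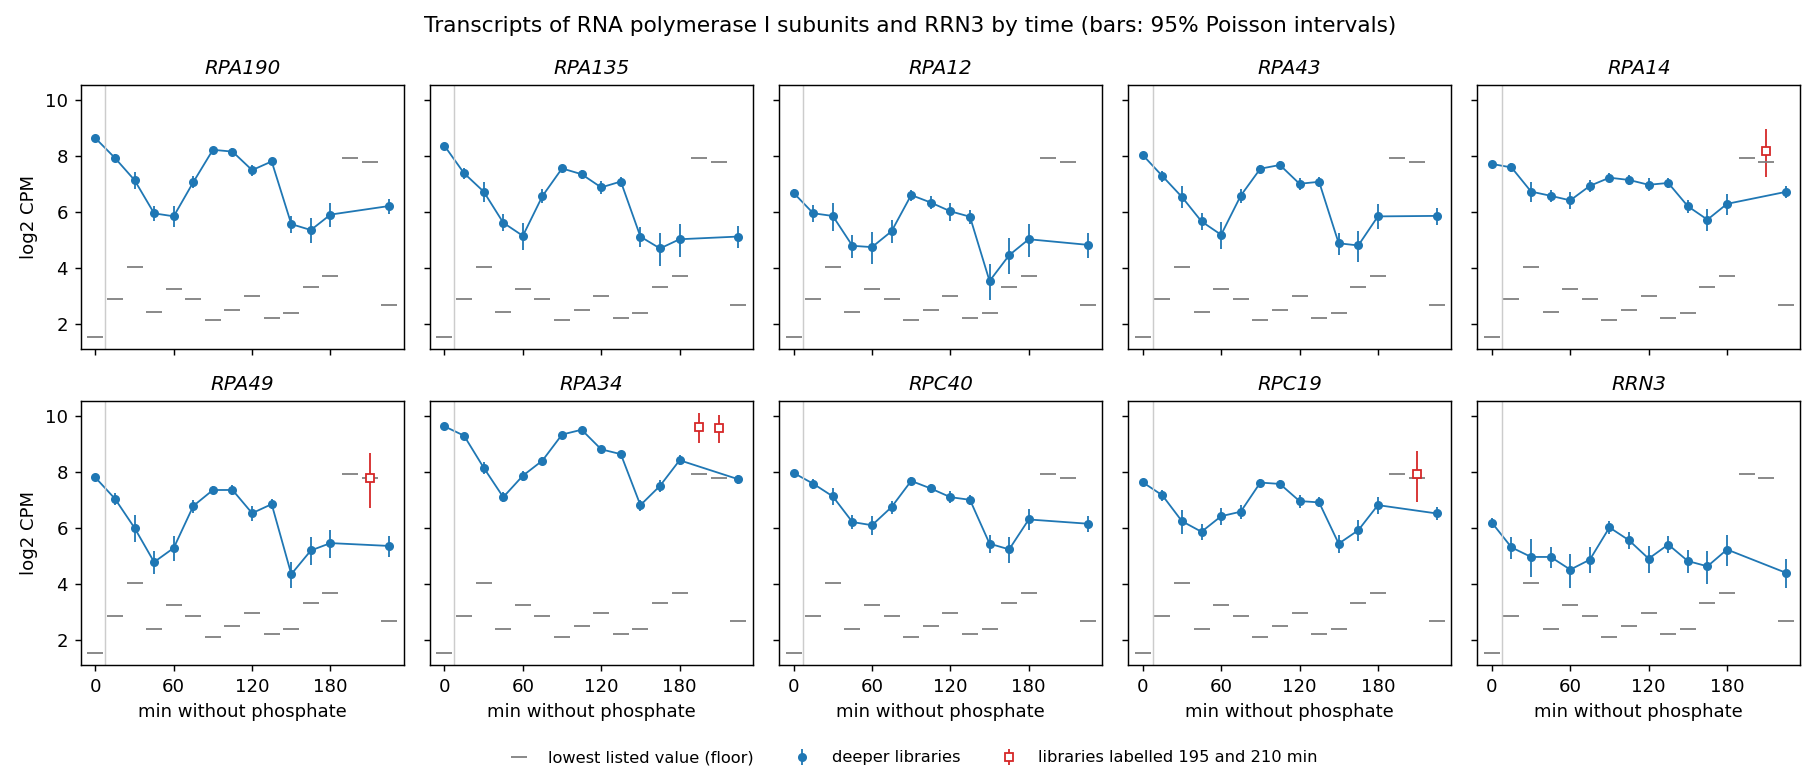
Level of each of the 10 genes (y axis, log2 CPM) against time without phosphate (x axis, min; 0 min is the high phosphate library), 1 point per library with its 95% Poisson interval for counting error, and a grey dash at the lowest value each library lists. Every gene lies below its 0 min value in the 13 deeper starvation libraries. The libraries labelled 195 and 210 min list RPA34 in both and RPA14, RPA49 and RPC19 at 210 min only.

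The times of the extremes are those of single libraries, and several are not settled within counting error. The first trough fell at 45 min for RPA34, RPA49 and RPC19 and at 60 min for the 7 other members. The highest value between 90 and 135 min was at 90 min for 7 members and at 105 min for RPA34, RPA43 and RPA49. The second trough was at 150 min for RPA12, RPA34, RPA49 and RPC19, at 165 min for 5 members and at 225 min for RRN3. RPA12 had 27.7 CPM (95% Poisson interval 20.7 to 36.4) at 45 min and 26.8 CPM (17.8 to 38.8) at 60 min. RRN3 had 25.0 CPM (16.2 to 36.9) at 165 min and 21.3 CPM (14.7 to 29.9) at 225 min. The split of the members by time is thus a description. Between successive libraries the sharpest step was that to 150 min. All 10 members were lower at 150 min than at 135 min, with a median difference of -1.89 (log2), and 8 of 10 were at least 2-fold lower, as were 7.0% of the 5342 genes listed in both. All 10 were also higher at 75 than at 60 min (median 0.61), at 90 than at 75 min (median 0.98) and at 180 than at 165 min (median 0.58).

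The return between the troughs was tested with limma on successive libraries grouped into windows, 90 to 120 min against 45 to 75 min, with a call at an adjusted p under 0.05 and a difference of at least 1 (log2). Successive libraries of a single culture stand in for replicates here, so p measures the scatter within windows. The windows were chosen with earlier results of these data known, and p does not allow for that choice. Of the 10 members 8 rose, against 5.0% of the 5216 genes tested that were called higher, and the median difference was 1.40 for the members and -0.08 for all genes. RPA190 averaged 7.96 ± 0.40 log2 CPM at 90 to 120 min and 6.29 ± 0.68 log2 CPM at 45 to 75 min (SD, n = 3 libraries each), a rise of 1.67 ± 0.31 (log2, SE; 3.18-fold; limma adjusted p = 0.00377). RPA43 rose by 1.60 ± 0.35 (adjusted p = 0.00743), RPA135 by 1.48 ± 0.31 (adjusted p = 0.00622) and RPA12 by 1.37 ± 0.32 (adjusted p = 0.0108). RPA49, RPA34, RPC19 and RPC40 rose by 1.46, 1.43, 1.10 and 1.04, with adjusted p between 0.0186 and 0.0354. RRN3 differed by 0.71 ± 0.29 (adjusted p = 0.119) and RPA14 by 0.47 ± 0.24 (adjusted p = 0.205), and neither passed. The 3 values of 90 to 120 min all lay above the 3 values of 45 to 75 min in 8 of 10 members, all but RPA49 and RRN3, against 13.2% of genes.

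The count of 8 depends on few libraries and on where the windows lie. It was 2 without the 60 min or the 105 min library and 4 without the 45 min or the 90 min library. It was 5 in limma without a mean-variance trend and 0 when 75 to 120 min was set against 15 to 60 min, where 1 member had an unadjusted p under 0.05. The estimates of all 10 members stayed positive in these alternatives.

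The second decline was tested in the same fit, as 150 to 180 min against 90 to 120 min, with windows also chosen with earlier results known. Of the 10 members 9 fell, against 8.73% of the 5154 genes tested that were called lower, with a median of -1.86 for the members and 0.11 for all genes. RPA190 averaged 5.61 ± 0.28 log2 CPM at 150 to 180 min and 7.96 ± 0.40 log2 CPM at 90 to 120 min (SD, n = 3 libraries each), a difference of -2.35 ± 0.31 (log2, SE; 5.08-fold lower; limma adjusted p = 6.6e-05). RPA135 differed by -2.31 ± 0.31 (adjusted p = 7.5e-05), RPA43 by -2.23 ± 0.35 (adjusted p = 0.000222) and RPA49 by -2.08 ± 0.44 (adjusted p = 0.00216). RPA12 differed by -1.98 ± 0.32 (adjusted p = 0.000293), RPC40 by -1.74 ± 0.27 (adjusted p = 0.000226) and RPA34 by -1.64 ± 0.39 (adjusted p = 0.00459). RPC19, at -1.33, and RPA14, at -1.04, had adjusted p of 0.0064 and 0.00349. RRN3 differed by -0.60 ± 0.29 (adjusted p = 0.144) and did not pass. The values of these windows did not overlap in the 9 members that fell, against 18.4% of genes. The count was 8 or 9 with any library of these windows left out, and 0 with 135 to 180 min set against 75 to 120 min, where 9 members had an unadjusted p under 0.05. The libraries of 150, 165 and 180 min held 1897079, 1001079 and 766529 reads, against 2280486, 1768232 and 1259214 reads at 90, 105 and 120 min. The part of depth in the second decline was not tested.

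**Figure D3:**
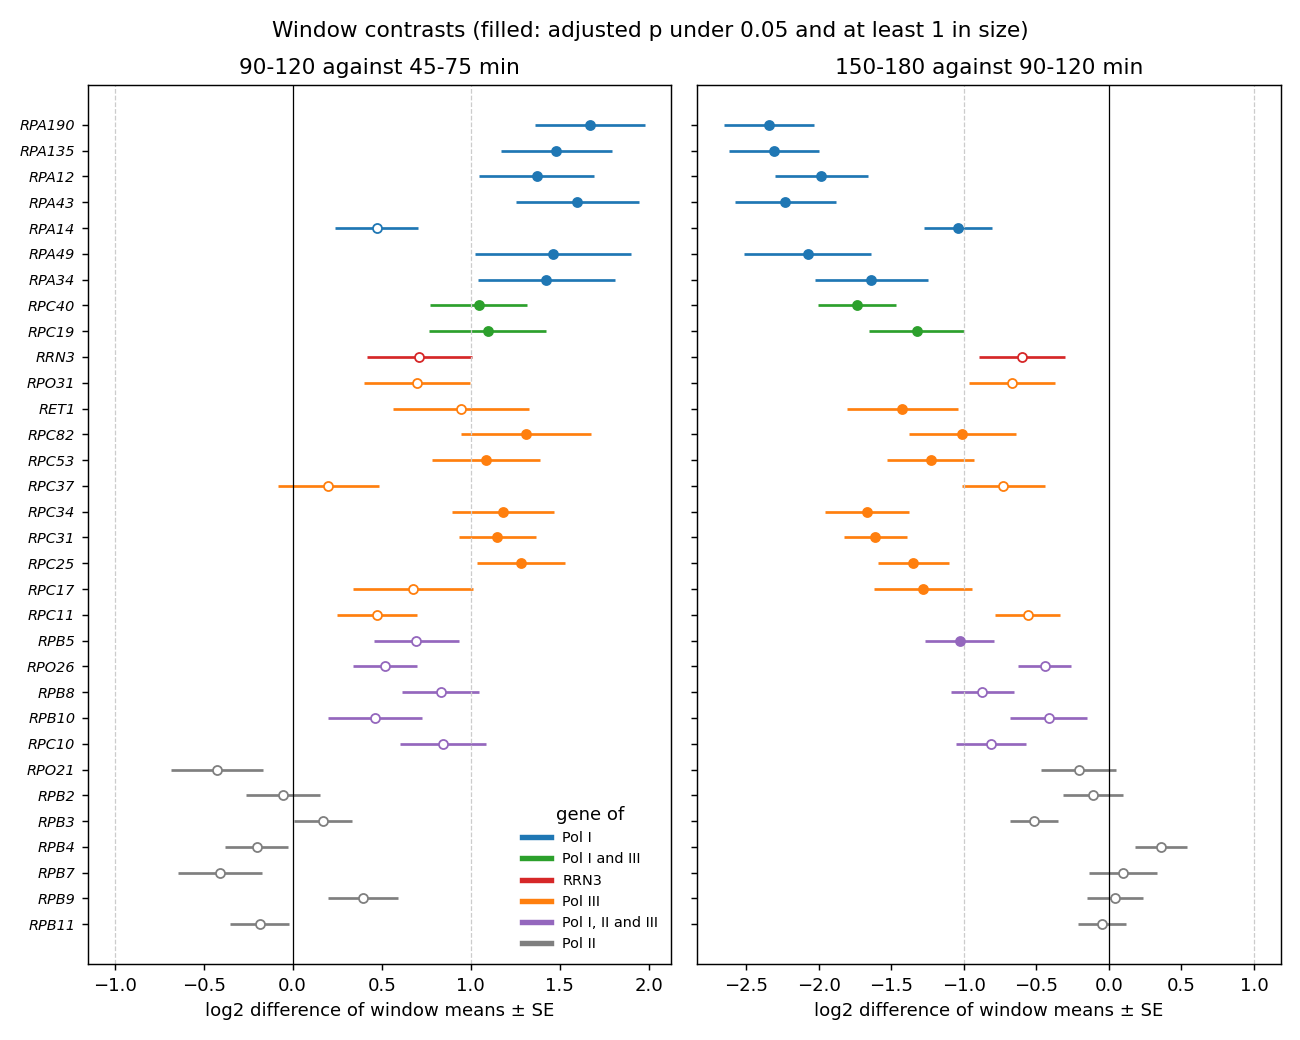
Differences between windows for the 10 members and for the other RNA polymerase subunit genes (x axis, log2 difference with its SE from limma; 1 row per gene), 90 to 120 against 45 to 75 min and 150 to 180 against 90 to 120 min. Filled points passed the call. RPA190 leads with 1.67 and -2.35, and no Pol II specific gene passed in either contrast.

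A line and a smooth curve over starvation were tested as well. The slope of log2 CPM from 15 to 225 min called 0 of 10 members in limma, against 3.29% of the 5282 genes tested that were called lower, and 2 members had an unadjusted p under 0.05. These were RPA135, with a fitted change of -1.84 ± 0.79 (adjusted p = 0.167), and RPC40, with -1.31 ± 0.60 (adjusted p = 0.199). A spline of 3 degrees of freedom also called 0 members, against 2.73% of genes, with 0 at an unadjusted p under 0.05, and limma voom on the recovered reads called 0 in both. A spline of 4 degrees of freedom called 9 of 10, against 34.4% of genes. Its adjusted p were lowest for RPA135 (3.6e-05) and RPA190 (6.59e-05), and that of RRN3 was 0.258.

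With a lone library at 0 min, ratios to it have no test. A gene was counted as lower when its mean log2 ratio was -1 or below with the same sign in each library of the window. At 15 min 0 of 10 members were 2-fold lower, against 1.37% of genes, and the log2 ratios ran from -0.98 for RPA135 to -0.12 for RPA14. After centring of all libraries on their median genes, 6 of 10 were 2-fold lower at 15 min. Centring lowers every ratio at 15 min, so the 1.37% does not apply to this count. The share of all genes lower after centring was not counted. Over the first hour (15 to 60 min) 9 of 10 members were lower, against 8.49% of 4615 genes. The mean ratios were -2.14 ± 1.02 for RPA135, -2.02 ± 0.98 for RPA49, -1.92 ± 1.00 for RPA190, -1.25 ± 0.33 for RRN3 and -0.89 ± 0.52 for RPA14, the one not counted (SD, n = 4 libraries). At 165, 180 and 225 min all 10 were lower, against 11.4% of 4903 genes. RPA135 was lowest there, at -3.41 ± 0.22 or 9.39% of its 0 min level, followed by RPA190 at -2.81 ± 0.43 and RPA43 at -2.53 ± 0.60. RPC19 was closest to 0 min, at -1.21 ± 0.46 (SD, n = 3 libraries).

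Levels were also expressed per length, although the libraries limit what this compares. Over all genes log2 CPM did not rise with coding length (medians of 6.01, 5.65 and 5.46 in genes of short, middle and long coding sequence), and log2 CPM per kb fell with it (6.84, 5.34 and 4.09). The labels do not say whether reads cover whole mRNAs. At 0 min RPA34 had 1135 CPM per kb of coding sequence, RPA14 507, RPC19 465, RPA12 272, RPA43 267, RPC40 249.6, RPA49 180.2, RPA135 91.2, RPA190 79.7 and RRN3 39.1 CPM per kb. Over the 14 deeper libraries the mean log2 CPM per kb was 8.89 ± 0.89 for RPA34, 8.08 ± 0.54 for RPA14, 7.92 ± 0.68 for RPC19, 6.83 ± 0.91 for RPA12, 6.72 ± 0.83 for RPC40, 6.46 ± 1.06 for RPA43, 5.85 ± 1.09 for RPA49, 4.63 ± 1.12 for RPA190, 4.48 ± 1.18 for RPA135 and 4.22 ± 0.53 for RRN3 (SD, n = 14 libraries). Neighbours in this order differ by less than the larger of their SDs, except RPC19 and RPA12, and RPA49 and RPA190. These SDs are the spread over a time course that the members share, and not the error of a difference between genes. The order above runs close to that of coding length, so a difference in mRNA level and one in length cannot be told apart, and no order of mRNA levels is drawn from it.

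The other polymerases give the comparison. Of the 10 genes specific to RNA polymerase III, which makes transfer RNAs, 5 rose at 90 to 120 against 45 to 75 min and 7 fell at 150 to 180 against 90 to 120 min (medians 1.02 and -1.25). RPC82 rose by 1.31 ± 0.37 and RPC53 by 1.09 ± 0.30, with adjusted p of 0.0248 and 0.0241. RET1, the second largest subunit, differed by 0.94 ± 0.38 (adjusted p = 0.111) and then fell by 1.42 ± 0.38 (adjusted p = 0.0104) in the second contrast. In the first hour RPC82, RPC53 and RET1 averaged -1.63 ± 0.78, -1.60 ± 0.85 and -1.44 ± 0.85 (log2, SD, n = 4 libraries) relative to 0 min. Of the 7 genes specific to RNA polymerase II, 0 passed in either direction in both window contrasts (medians -0.18 and -0.05). Of all genes tested, 3.01% were called lower in the first contrast and 7.31% higher in the second. RPB4 of its stalk, RPB11 and RPO21, the largest subunit, averaged 0.55 ± 0.17, 0.34 ± 0.26 and 0.27 ± 0.20 in the first hour. Of the 5 subunits common to all 3 enzymes, 0 passed in the first contrast and 1 fell in the second, RPB5 by 1.03 ± 0.24 (adjusted p = 0.00415). The medians of this list were 0.70 and -0.81. RPB8 (0.83 and -0.87, limma adjusted p = 0.0186 and 0.00658) and RPC10 (0.84 and -0.81, limma adjusted p = 0.0283 and 0.0187) missed only the minimum of 1. RPB5 passed the adjusted p in the second contrast only, and the rest of the list in neither. In the first hour RPB8, RPB5 and RPC10 averaged -1.01 ± 0.65, -0.96 ± 0.38 and -0.41 ± 0.25.

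**Figure D4:**
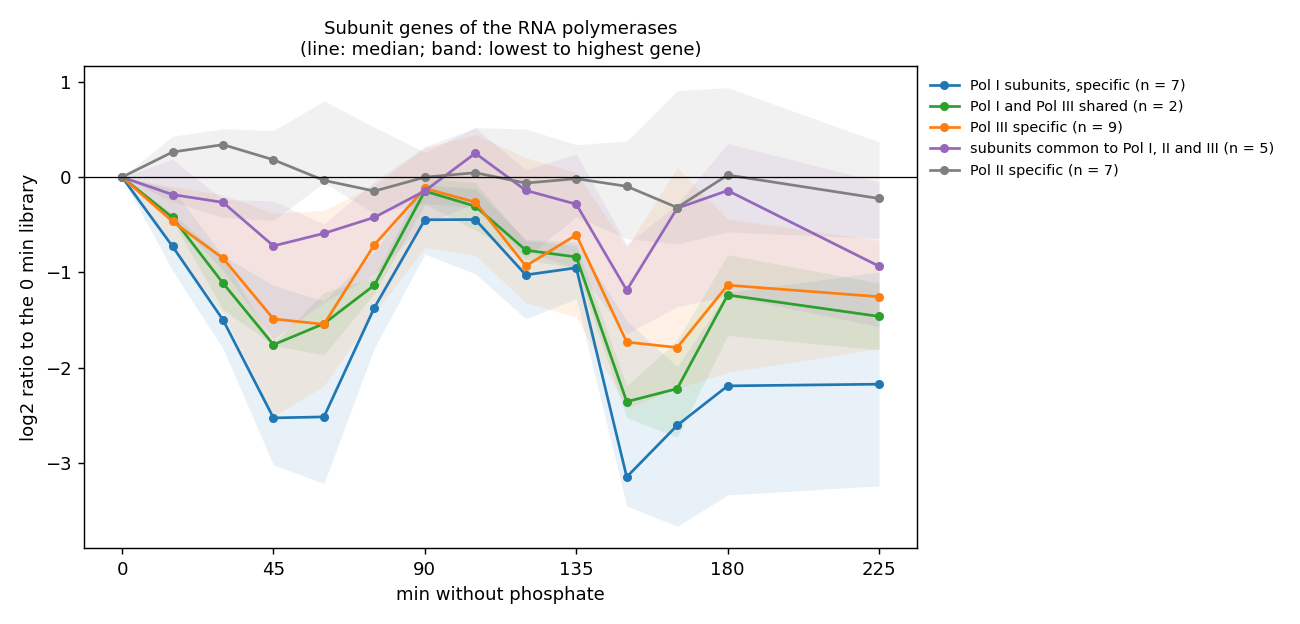
Log2 ratio to the 0 min library (y axis) against time without phosphate (x axis, min) for subunit genes listed in all 14 deeper libraries, by polymerase (line, median; band, lowest to highest gene). At 150 min the median was -3.15 for the 7 genes specific to Pol I, -2.36 for RPC40 and RPC19, and -1.73 for 9 genes specific to Pol III, and -0.10 for the 7 genes specific to Pol II.

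Few genes for other factors of ribosomal DNA transcription passed the tests. Of 9 genes for the core factor and the upstream activating factor, which place the polymerase at the promoter, with the TATA-binding protein gene SPT15 and HMO1, whose product binds the ribosomal DNA, 7 could be tested in the first window contrast and 1 rose. That gene was RRN11 of the core factor, named here after its values were seen, with 1.40 ± 0.39 (adjusted p = 0.0272) and -1.23 ± 0.39 (adjusted p = 0.0297) in the contrasts. In the first hour RRN6 averaged -0.63 ± 0.27, UAF30 0.46 ± 0.39 and HMO1 0.43 ± 0.10. Of 6 genes for termination and silencing at the ribosomal DNA, 5 could be tested in each window contrast and 0 passed. NET1 and SIR2, of the silencing complex, and FOB1, the replication fork block factor, averaged -0.52 ± 0.24, -0.33 ± 0.30 and -0.24 ± 0.40 in the first hour. Of 10 RNA polymerase III factors 0 passed in the window contrasts. MAF1, the repressor of RNA polymerase III, was higher than at 0 min in the first hour by 1.87 ± 0.59 and late by 2.94 ± 0.63, and its slope was called (1.76 ± 0.37, adjusted p = 0.0176). Of all genes, 16.0% were at least 2-fold higher in the first hour and 26.4% late, and 3.10% had a slope called higher. TFC3, a subunit of TFIIIC, averaged 0.64 ± 0.18 and PZF1, the gene of TFIIIA, -0.50 ± 0.33 in the first hour.

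Most genes that process the precursor ribosomal RNA passed in the directions of the members. Of 44 such genes 35 rose at 90 to 120 against 45 to 75 min, and 40 of the 43 tested fell at 150 to 180 against 90 to 120 min (medians 1.36 and -1.91). NSR1, PWP2 and ENP2 had the lowest first-hour means, -2.89, -2.64 and -2.54, among the 40 genes of the list that have one. NOP2, UTP4, NAN1 and IMP3 lacked a value in at least 1 library and could not be ranked. Over the 14 deeper libraries the 6 genes whose profile was most like the members' mean were NOP14 (Pearson r 0.994), EBP2 (0.990), ALB1 (0.989), NOP4 (0.989), PRP43 (0.989), a helicase of ribosome assembly and splicing, and RPF2 (0.988), among 4485 other genes with a median r of -0.23. NOP14, EBP2 and NOP4 are on the processing list. Each member was close to the mean of the 9 others, from 0.988 for RPA43 and 0.984 for RPA190 to 0.907 for RPC19 and 0.809 for RRN3. RPA12, the member with neither core, had 0.956, and RPA14 had 0.910. The part of the cores in these values was not tested. Of the 45 pairs of members the highest r was that of RPA43 and RPA190, at 0.987, and the lowest that of RPA14 and RRN3, at 0.71. RPA43 and RPA190 were also the members closest to the mean of the 9 others. The part of their position as neighbours was not tested. All these values share the same libraries and are descriptions.

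Upstream matches were counted in the other lists too. Of the 10 genes specific to RNA polymerase III, 8 held a PAC core and 5 held both cores. Of the 44 processing genes 42 held a PAC core and 33 both. Of the 7 genes specific to RNA polymerase II and the 5 common subunits, 0 held a PAC core, and 2 in each list held an RRPE core. These shares were not tested.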

How the data were processed

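The deposited table gives log2 values per gene and library. Raised back, each library sums to 1000000, so the authors' log2 values are log2 CPM, a normalization to each library's listed reads. Per the submitters' processing notes reads were aligned with Bowtie to build R64. The counting program, the strand setting and the handling of multiply mapped reads are not given in the sources used here. Of 6701 entries, 51 have no name and 1 name on 2 entries was left out. The lowest listed value was taken as 10 reads: with this step all 145 listed member values were whole reads (tolerance 0.01), 69 of them odd, as were 87.2% to 96.3% of low values per library. Poisson intervals (95%) cover counting error only.

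Tests used limma 3.58.1 in R 4.3.3 (lmFit, eBayes with trend) on the 13 deeper starvation libraries, for genes with at least 8 values, two-sided, with Benjamini-Hochberg adjustment over all genes. Windows were 15 to 30, 45 to 75, 90 to 120, 135, 150 to 180 and 225 min (7 residual degrees of freedom), and contrasts needed 2 values per window. Scripts were tested on simulated data. Motifs were searched with Python 3.11.15 in the R64 genome of RefSeq, and sequences are from it. The members, lists, windows and tests were chosen with earlier results of these data known. Named genes are all members, up to 3 genes of each other list with the largest absolute first-hour ratio, and the 6 genes most alike in profile. Lists were the polymerase subunits and factors, ribosomal DNA, growth regulators, precursor ribosomal RNA processing, other cell types and strain checks. Alternatives changed the libraries, scaling, minimum of values, variance model, threshold, windows and spline. Voom on recovered reads was added after seeing the data.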

Additional observations from a re-analysis of the deposited data

Results flagged for a closer look

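RPA14 and RPC19 stood above their 0 min value in the library labelled 210 min, which the comparisons do not use. RPA14 was listed there at 8.17 log2 CPM, or 13 reads and 289 CPM with a 95% Poisson interval of 154 to 494 CPM, against 7.71 log2 CPM (210.0 CPM) at 0 min. RPC19 was listed there at 7.93 log2 CPM, or 11 reads and 244 CPM with an interval of 122 to 437 CPM, against 7.64 log2 CPM (199.5 CPM) at 0 min. Both intervals include the 0 min value. The floor of that library is 222 CPM, so a gene is listed there only when it is high, and RPA190, RPA135, RPA43, RPC40, RPA12 and RRN3 were listed in neither of the libraries labelled 195 and 210 min. RPA34 had 781 CPM (534 to 1102) at 195 min and 755 CPM (523 to 1056) at 210 min, against 344 CPM at 180 min and 215 CPM at 225 min. RPA49 was listed at 210 min with 10 reads, the floor itself. The level of VTC1 in both libraries is given with the depths, and its part in these values was not tested.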

How the results depend on the processing

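No paired analysis was possible because each time point is 1 library and the labels give no replicate numbers. The slope called 338 genes, 100 with all 15 starvation libraries and 714 with the 0 min library added, where 1 member was called, RPA135 (adjusted p = 0.0399). Leaving out 1 library gave 57 to 417 genes, with 57, 72, 109, 62 and 64 without the 15, 30, 165, 180 and 225 min libraries, and 0 members each time. With all 15 libraries the slopes of RPA34 and RPC19 changed sign, to 0.18 and 0.24, against -0.71 and -0.26; in the added libraries these genes are listed only when high. The spline of 3 degrees of freedom called 144 genes, 22 with all 15 libraries, 260 with 2 degrees of freedom and 1817, 9 members among them, with 4. Leaving out 1 library gave 36 to 643, the highest without 225 min and the lowest without 30 min. For 90 to 120 against 45 to 75 min, 8 members and 418 genes became 0 and 10 with hour windows, 5 members came without a variance trend, and 777 genes with no minimum difference. Leaving out 1 library gave 2 to 9 members and 165 to 518 genes. For 150 to 180 against 90 to 120 min, 9 members and 827 genes became 0 and 14 with hour windows and 1492 genes with no minimum, and leaving out 1 library gave 8 to 9 members and 707 to 933 genes. For the first hour it gave 8 to 10 members and 985 to 1322 genes, and for the late window 9 to 10 members and 1864 to 1947 genes. At 15 min 0 members became 6 with centred libraries and 2 with quantile normalization, which called 351 genes against 766. The share of all genes lower was not counted under either scaling. The cause of these changes was not tested. Depth limits RRN3 and RPA12 most, at 19 reads or more.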

Other observations

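Some regulators of growth genes are known to bind the motifs shown above. STB3, whose product binds RRPE, had between 47.4 CPM (90 min) and 83.9 CPM (165 min) in the deeper starvation libraries, against 36.4 CPM at 0 min. It averaged 0.77 ± 0.07 (log2, SD, n = 4 libraries) above 0 min in the first hour. It differed by -0.27 ± 0.18 at 90 to 120 against 45 to 75 min (limma adjusted p = 0.359) and by 0.72 ± 0.18 at 150 to 180 against 90 to 120 min (adjusted p = 0.0068), under the minimum of 1 for a call. FHL1, a regulator of ribosomal protein genes, averaged 1.00 ± 0.27 above 0 min in the first hour, and SCH9, a growth-promoting kinase, -0.35 ± 0.40. Of the 8 regulators of growth genes, 6 could be tested in each window contrast and 0 passed.

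TOD6, whose product binds PAC, was looked at after its values were seen. It had 58.5 CPM at 0 min and 21.4 CPM at 15 min and was not listed at 30 to 75 min, where the floors were 16.6, 5.34, 9.59 and 7.36 CPM. It had 42.5, 19.8, 13.5 and 10.4 CPM at 90 to 135 min, was not listed at 150, 165 and 180 min (floors of 5.27, 9.99 and 13.05 CPM), and had 10.98 CPM at 225 min. Its paralogue DOT6 had 99.5 to 184 CPM in the deeper starvation libraries, against 150.1 CPM at 0 min. With most values of TOD6 missing no test was made.

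The markers of other cell types gave 0 calls in the window contrasts, of 3 and 2 that could be tested, too few to set beside the shares of all genes. NDT80, a sporulation regulator, averaged 1.86 ± 0.39 above 0 min in the first hour, and STE3, a receptor of the opposite mating type, 0.90 ± 0.51. Among genes with a deletion allele in BY4741, LEU2 and MET17 had no value at any time. HIS3 had a value at 0 min only, 3.78 CPM. URA3 had 4.65, 7.89 and 15.7 CPM at 0, 90 and 180 min and no other value. The floors at 0, 90 and 180 min were 2.91, 4.39 and 13.05 CPM.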
